A study of Homo sapiens with 3 samples.

Results

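The immediate early transcription factors and their companions described here are 10 genes, FOS, FOSB, FOSL1, JUN, JUNB, JUND, EGR1, IER2, IER3 and ATF3, out of 27274 gene names on a human Agilent array. They were chosen by name, and all 14 probes that carry these names were used, out of 34127 probes of 60 bases. RNA came from HepG2 cells, an established human hepatocellular carcinoma line with wild-type p53. Cells received 0, 10 or 100 μM etoposide, a topoisomerase II poison that leaves DNA double-strand breaks, and were harvested at 30 h. The labels call the control untreated, whereas the study's table calls it DMSO. The study used the low dose as its senescence condition and the high dose as its apoptosis condition, and asked which transcripts separate them. There was 1 array per condition, so the differences below could not be tested and are descriptions of these arrays.

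Immediate early genes are switched on within minutes of a growth or stress signal, without new protein synthesis, because factors such as SRF and CREB already sit at their promoters and are activated by kinases. Proteins of the FOS and JUN families pair through leucine zippers to form AP-1, which binds the sequence TGANTCA (N is any base). ATF3 belongs to the same large class of leucine zipper proteins and is induced by many stresses, and EGR1 is a zinc finger factor that shares upstream signals with FOS. Their transcripts are short-lived as a rule. The arrays sampled a single time, and earlier hours were not analysed here.

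A signal below is the background-subtracted intensity of a spot, in scanner units, and a ratio is the difference of log2 signals after each array was set to its own 75th percentile over all probes. That percentile was 514 in control cells, 536 at 10 μM and 432 at 100 μM, so equal signals give a higher ratio at 100 μM. Between 19836 and 20151 probes per array were well above background by the scanner software's own call. The arrays lay on 1 slide. The error beside a ratio is the SD between spots, taken from probes printed 10 times at a like signal, and it covers a single array, not cultures or RNA preparations. Hepatocyte markers (ALB, AFP, APOA1, APOB, TTR, HNF4A, SERPINA1 and FGB) were well above background on all arrays, 8 of 8, whereas 0 of 4 fibroblast markers were so on any array. Of the blood and immune markers, 4 of 4 were well above background on all arrays, with summed signals of 4596, 4811 and 7604 at 0, 10 and 100 μM. Of the endothelial markers, 2 of 3 were, with summed signals of 530, 363 and 354, and the part of either marker list in the results below was not tested.

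At 10 μM, 9 of the 10 genes were higher than in control cells, by modest amounts, and the exception was IER2. The median ratio of the 10 genes was 0.60 on the log2 scale, compared with -0.04 over all 16658 genes measured with that array pair, of which 45.4% were higher. At 100 μM the genes divided. EGR1, FOSB, JUNB and JUND were above control, FOS, JUN and FOSL1 lay within 0.05 log2 units of it, and IER2, IER3 and ATF3 were below it. The median at 100 μM was 0.04, against 0.10 over all genes, of which 57.6% were higher. In RNA of whole cultures, fewer cells that carry a transcript and less of it per cell cannot be told apart.

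None of the 10 genes had a ratio more than 2-fold above or below control at either dose. For FOSB the ratios are lower bounds, at least 1.56- and at least 1.87-fold, so whether it was past 2-fold cannot be said. Over all genes, 3.37% were more than 2-fold higher and 1.57% more than 2-fold lower at 10 μM, and 6.75% and 3.64% were so at 100 μM. With a threshold of 1.5-fold, 5 genes were higher at 10 μM (FOS, FOSB, FOSL1, IER3 and ATF3), beside a background of 9.05% of all genes. JUN, JUND and EGR1 missed that threshold narrowly, each at 0.58 on the log2 scale. At 100 μM, 2 genes were more than 1.5-fold higher (FOSB and EGR1), beside a background of 18.4%, and 0 were more than 1.5-fold lower. The 14 probes included 8 that were more than 1.5-fold higher at 10 μM, but several of these measure the same gene (ATF3 or IER3). The share of all probes past 1.5-fold was not counted.

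**Figure D1:**
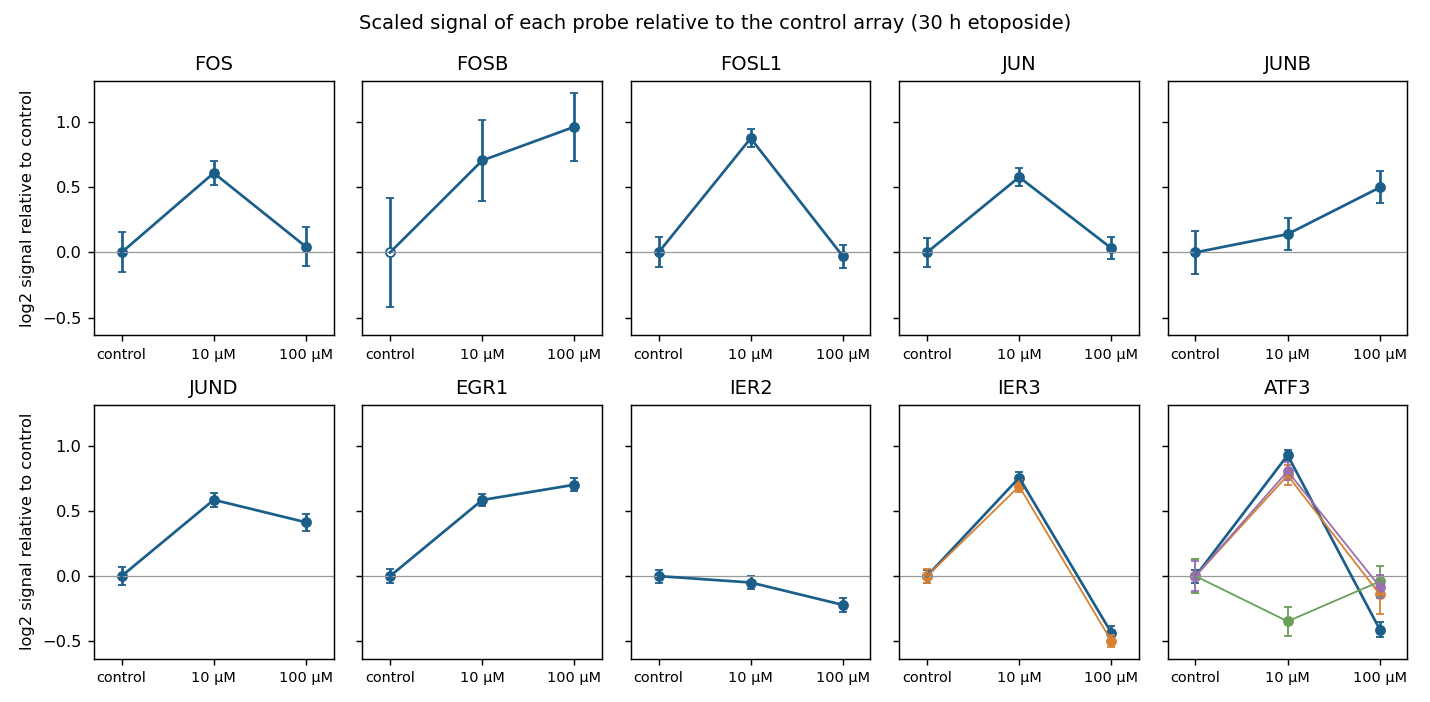
Each panel is a gene and each line a probe, with the etoposide dose on the x axis and the log2 signal relative to the control array, after scaling to the 75th percentile, on the y axis. Bars are 1 SD between spots of a like signal on that array, from 1 array per dose, and the open point of FOSB is its control signal, which was not well above background. FOSL1, IER3 and 3 of the 4 ATF3 probes peak at 10 μM, whereas EGR1, FOSB and JUNB are highest at 100 μM.

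FOS is the founding partner of JUN in AP-1. Its probe (NM_005252, hg18 chr14:74817967-74818026, plus strand) had a signal of 67.3 in control cells, 107 at 10 μM and 58.3 at 100 μM. The 10 μM array stood alone as the high one. The scaled ratio to control was 0.61 ± 0.18 (log2, spot SD) at 10 μM, or 1.53-fold, and 0.04 ± 0.21 at 100 μM. At 10 μM, 91.5% of all genes had a lower ratio than FOS, and at 100 μM 45.9% did. The 250 bases before the FOS start site, from RefSeq on GRCh38.p14 (chr14:75278578-75278827, plus strand), are shown because they match elements close to the start that have long been studied in this gene. In this and the later promoter sequences, capitals mark any AP-1 site (TGANTCA), cyclic AMP response element (CRE, TGACGTCA), its half-site TGACG, its variant TGACATCA, CArG box, EGR site (GCGNGGGCG) or TATA box (TATAAA), read on both strands.
FOS promoter: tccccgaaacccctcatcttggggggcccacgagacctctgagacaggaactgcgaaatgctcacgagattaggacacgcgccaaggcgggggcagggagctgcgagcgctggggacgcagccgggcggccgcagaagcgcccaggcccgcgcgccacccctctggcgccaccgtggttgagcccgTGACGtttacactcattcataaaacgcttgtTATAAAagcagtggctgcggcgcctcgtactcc
In FOS the half-site TGACG began at position -64 and the TATA box at -33, counted back from the base before the start site as -1.

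FOSB, a close relative of FOS, was the dimmest of these genes' probes in control cells, where its signal of 18.7 was not well above background (NM_006732, hg18 chr19:50670045-50670104, plus strand). It was 31.8 at 10 μM and 30.7 at 100 μM, well above background on both. Against the lowest signal called well above background on the control array, 19.5, FOSB was at least 1.56-fold higher in cells with the low dose. For the high dose the bound was at least 1.87-fold. The spot SDs of the ratios were 0.52 and 0.50 on the log2 scale, so neither ratio was 2 spot SDs from 0. The doses differed from each other by 0.26 ± 0.40 (log2), less than the spread between spots, and this difference changed sign between scalings, from -0.11 to 0.33.

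FOSL1 encodes FRA1, a FOS family protein that lacks the strong activation domain of FOS. Its probe (NM_005438, hg18 chr11:65416674-65416733, minus strand) gave 155 in control cells, 296 at 10 μM and 128 at 100 μM. The low dose was again the high array, and the others lay close together. The ratio was 0.87 ± 0.14 (log2), or 1.83-fold, at 10 μM and -0.03 ± 0.15 at 100 μM, and 95.5% and 40.0% of all genes lay below it at these doses. Between the doses FOSL1 was 1.87-fold lower at 100 μM than at 10 μM (log2 -0.90 ± 0.11), and over 7 scalings this value ran from -1.22 to -0.84, past 2-fold in some of them.

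JUN, which can pair with itself or with FOS proteins, followed FOS closely. The signal of its probe (NM_002228, hg18 chr1:59019099-59019158, minus strand) was 175 in control cells, 273 at 10 μM and 151 at 100 μM. The ratios were 0.58 ± 0.13 (log2), or 1.49-fold, at 10 μM and 0.03 ± 0.14 at 100 μM. The scaling of the arrays decided the sign of the last value: over 7 scalings it ran from -0.26 to 0.09 for JUN, from -0.25 to 0.10 for FOS and from -0.32 to 0.03 for FOSL1, so these 3 genes at 100 μM have no settled direction. The RefSeq promoter of JUN on GRCh38.p14 (chr1:58784048-58784297, minus strand) is shown because it and that of ATF3, further below, share the CRE variant.
JUN promoter: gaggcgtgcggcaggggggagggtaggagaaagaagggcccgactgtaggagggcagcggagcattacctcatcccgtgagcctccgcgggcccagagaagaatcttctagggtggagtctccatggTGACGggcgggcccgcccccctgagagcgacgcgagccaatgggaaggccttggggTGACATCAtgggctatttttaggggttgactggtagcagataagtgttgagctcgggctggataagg
The variant TGACATCA lay at -67 to -60 in JUN, a place where JUN and ATF2 proteins are known to bind, and a half-site at -123 to -119.

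JUNB, which often opposes JUN at shared targets, moved least at the low dose among the genes that were above control. Its signals (NM_002229, hg18 chr19:12763998-12764057, plus strand) were 61.4, 70.6 and 73.0 at 0, 10 and 100 μM. The ratio was 0.14 ± 0.20 (log2) at 10 μM, within the spread between spots, and 0.50 ± 0.20, or 1.41-fold, at 100 μM. JUND, the JUN family member that is expressed most steadily in resting cells, had signals of 258, 403 and 288 (NM_005354, hg18 chr19:18252371-18252430, minus strand). Both treated arrays were above the control array. The JUND ratio was 0.58 ± 0.09 (log2) at 10 μM and 0.41 ± 0.09, or 1.33-fold, at 100 μM. The promoter of JUND (RefSeq, GRCh38.p14, chr19:18281623-18281872, minus strand) is shown because JUND was the only 1 of the 8 genes read that held a whole CRE in this window.
JUND promoter: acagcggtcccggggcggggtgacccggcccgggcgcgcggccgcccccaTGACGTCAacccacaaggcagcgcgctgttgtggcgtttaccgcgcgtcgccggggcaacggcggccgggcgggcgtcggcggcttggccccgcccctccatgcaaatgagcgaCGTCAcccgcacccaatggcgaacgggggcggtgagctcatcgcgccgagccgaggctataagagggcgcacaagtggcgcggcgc
That CRE lay at -200 to -193, and a separate half-site at -86 to -82.

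EGR1 had the largest ratio at 100 μM among those of the 10 genes that every array measured well above background. Its probe (NM_001964, hg18 chr5:137832790-137832849, plus strand) had a signal of 1387 in control cells, 2168 at 10 μM and 1896 at 100 μM. Both treated arrays lay above the control array, and after scaling they differed little from each other. The ratio was 0.58 ± 0.07 (log2) at 10 μM and 0.70 ± 0.07, or 1.63-fold, at 100 μM. At 100 μM 85.7% of all genes lay below EGR1. Over 7 scalings the value at 100 μM ran from 0.41 to 0.76, whereas the difference between the doses, 0.12 ± 0.07, changed sign (-0.19 to 0.19). The EGR1 promoter (RefSeq, GRCh38.p14, chr5:138465229-138465478, plus strand) is shown because it matched the CArG box, the sequence that SRF binds, and SRF links growth signals to this gene.
EGR1 promoter: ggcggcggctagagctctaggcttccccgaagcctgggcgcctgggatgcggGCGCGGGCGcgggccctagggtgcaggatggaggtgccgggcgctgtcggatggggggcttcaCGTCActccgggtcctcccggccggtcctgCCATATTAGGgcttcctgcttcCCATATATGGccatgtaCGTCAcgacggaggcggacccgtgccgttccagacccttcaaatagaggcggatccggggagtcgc
It held a pair of CArG boxes, at -105 to -96 (CCATATTAGG) and at -83 to -74 (CCATATATGG), half-sites of the CRE at -135 to -131 and -66 to -62, and an EGR site at -198 to -190. SRF itself had signals of 170, 127 and 96.0 at 0, 10 and 100 μM, which were ratios of -0.49 and -0.58 (log2) at the doses.

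ATF3, a stress-induced repressor and activator that pairs with JUN proteins, showed the widest difference between the doses with its brightest probe. The brightest of its 4 probes (NM_001040619, hg18 chr1:210860479-210860538, plus strand) gave 2021 in control cells, 4009 at 10 μM and 1279 at 100 μM. The low dose was above control and the high dose below it. The ratio was 0.93 ± 0.07 (log2), or 1.90-fold, at 10 μM, above that of 96.0% of all genes. At 100 μM it was -0.41 ± 0.07, or 1.33-fold lower than control, with 16.1% of all genes below it. Between the doses, ATF3 was 2.53-fold lower at 100 μM (log2 -1.34 ± 0.07), and over 7 scalings this value ran from -1.65 to -1.27.

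The other ATF3 probes were dimmer and did not all follow. Those at chr1:210855125-210855184 (NM_001674) and chr1:210859460-210859519 (NM_001040619), both on the plus strand of hg18, are shown as the array carries them, since they are the ones that followed the brightest probe at the low dose.
ATF3 probe, NM_001674: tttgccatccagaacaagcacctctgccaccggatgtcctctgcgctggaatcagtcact
ATF3 probe, NM_001040619: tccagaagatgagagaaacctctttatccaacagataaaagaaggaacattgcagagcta
The first had signals of 163, 297 and 130, with ratios of 0.80 ± 0.13 and -0.08 ± 0.14 (log2) at 10 and 100 μM. The second had signals of 76.7, 137 and 58.5, with ratios of 0.77 ± 0.15 and -0.14 ± 0.20. Their values at 100 μM were within the spread between spots of control, unlike that of the brightest probe. The remaining probe, at chr1:210859142-210859201, was highest in control cells, with signals of 111, 91.2 and 90.9 and ratios of -0.35 ± 0.17 and -0.04 ± 0.18. With the mean of all 4 probes, ATF3 was 0.54 above control (log2) at 10 μM, -0.17 at 100 μM and -0.71 between the doses, and was then no longer past 2-fold, with a smaller difference between the doses than IER3 or FOSL1. The first ATF3 promoter (RefSeq, GRCh38.p14, chr1:212565157-212565406, plus strand) is the counterpart to that of JUN.
ATF3 promoter, start site 1: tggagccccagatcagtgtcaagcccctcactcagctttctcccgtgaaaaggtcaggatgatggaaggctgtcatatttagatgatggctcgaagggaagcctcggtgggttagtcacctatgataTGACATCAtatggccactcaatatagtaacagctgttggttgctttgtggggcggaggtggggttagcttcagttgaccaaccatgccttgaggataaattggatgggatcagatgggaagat
It held TGACATCA at -123 to -116 and no other of the marked sequences.

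IER3, also called IEX-1, is not a DNA-binding factor but a small stress-responsive protein that acts on cell survival and on signalling by kinases and NF-kB. Its brighter probe (NM_003897, hg18 chr6:30819291-30819350, minus strand) read 19784 in control cells, 34827 at 10 μM and 12311 at 100 μM. The dose pattern was that of the brightest ATF3 probe, with the low dose above control and the high dose below. At 100 μM the other ATF3 probes were within the spread between spots of control. The IER3 ratio was 0.75 ± 0.07 (log2), or 1.69-fold, at 10 μM, and -0.43 ± 0.07, or 1.35-fold lower, at 100 μM. A second probe for the same transcript (chr6:30819555-30819614) is shown because it repeats the measurement at another place.
IER3 probe, second: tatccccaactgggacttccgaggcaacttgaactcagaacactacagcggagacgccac
Its signals were 7976, 13412 and 4755, with ratios of 0.69 ± 0.07 and -0.50 ± 0.07. Between the doses the probes gave 2.28-fold and 2.27-fold lower signals at 100 μM, and these values differed by less than the spread between spots.

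IER2, a small nuclear protein of the same naming series had the ratio nearest to 0 at 10 μM. The signals of its probe (NM_004907, hg18 chr19:13126586-13126645, plus strand) were 18639, 18794 and 13453 at 0, 10 and 100 μM. The ratio of -0.05 ± 0.07 (log2) at 10 μM was within the spread between spots and took either sign between scalings. At 100 μM it was -0.22 ± 0.07, or 1.17-fold lower, and it was below control under each of 7 scalings (-0.51 to -0.16).

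Between the doses, 7 of the 10 genes were lower at 100 μM than at 10 μM and 3 were higher (FOSB, JUNB and EGR1). The share of all genes that were higher at 100 μM than at 10 μM was 60.01%. The median of the 10 genes was -0.36 (log2) against 0.11 over all genes. Over 7 scalings, FOSB (-0.11 to 0.33) and EGR1 (-0.19 to 0.19) took either sign, whereas JUNB stayed higher and the other genes stayed lower. IER3 and ATF3 were more than 2-fold lower at 100 μM, as were 3.64% of all genes, and 0 of the 10 genes were more than 2-fold higher, as were 3.94% of all genes. The comparisons with control share the control array and the comparison of the doses shares both treated arrays with them, so they are not independent.

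**Figure D2:**
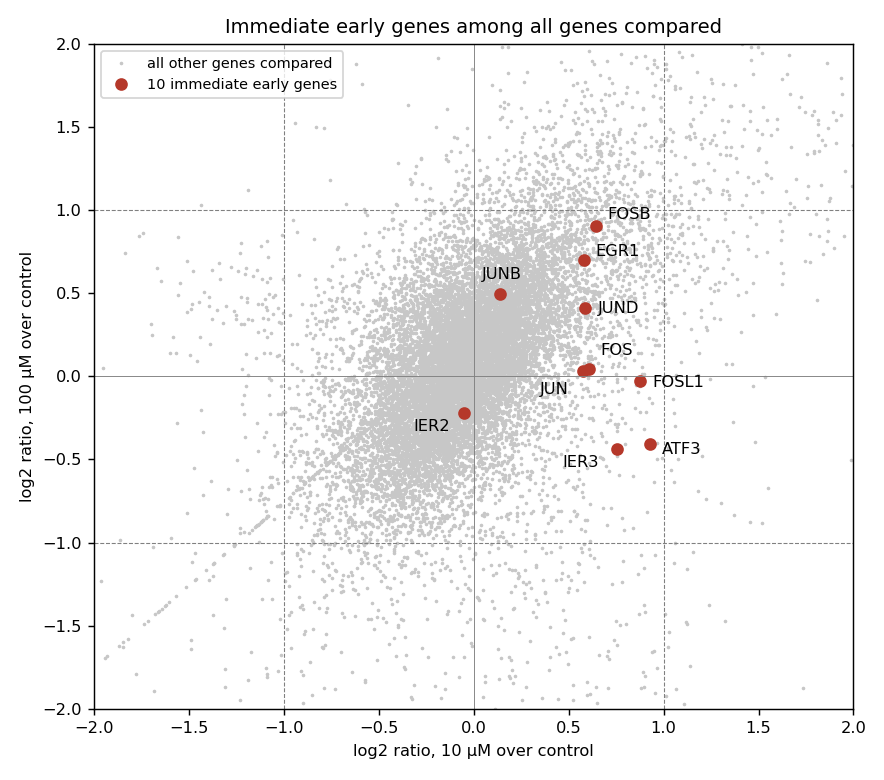
Each point is a gene, with its log2 ratio to control at 10 μM on the x axis and at 100 μM on the y axis, and dashed lines at 2-fold. Grey points are the other genes compared, those beyond the axes are not drawn, and the 10 red points are the named genes. The red points, all inside the dashed lines, lie to the right of 0 on the x axis except IER2, and spread from -0.43 (IER3) to 0.90 (FOSB, a lower bound) on the y axis.

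The scaling between arrays mattered more at 100 μM than at 10 μM, since the 75th percentile was 0.25 lower on the log2 scale at 100 μM than in control cells. Without scaling, the median of all genes at 100 μM was -0.15, compared with 0.10 after scaling. Over 7 scalings, every one of the genes but IER2 was above control at 10 μM. At 100 μM, EGR1, FOSB, JUNB and JUND were above and IER2, IER3 and ATF3 below control under each of them. With another background correction (normexp), the ratios of the dimmer probes at 10 μM were smaller, 0.33 for FOS and 0.23 for FOSB, but of the same sign.

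**Figure D3:**
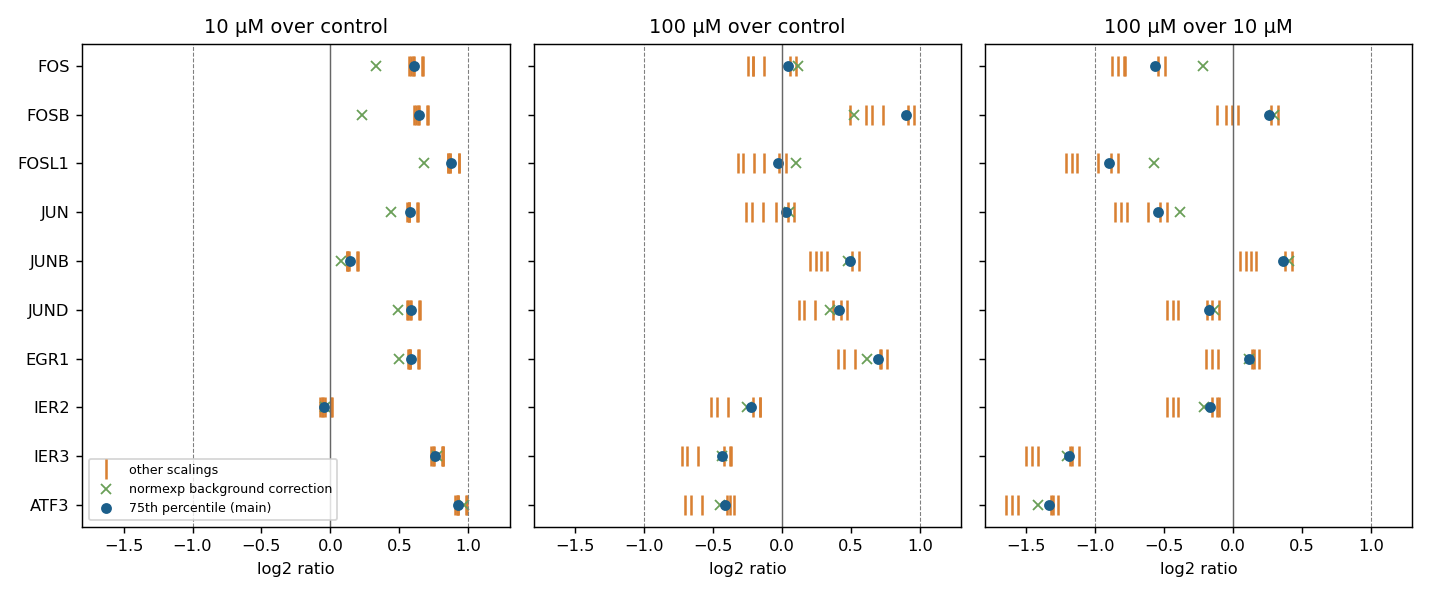
Each row is a gene and each panel a comparison, with the log2 ratio on the x axis and dashed lines at 2-fold. Blue points are the values after scaling to the 75th percentile, orange ticks those under the other scalings, and green crosses those with normexp background correction, from 1 array per dose. At 100 μM over control the ticks of FOS, FOSL1 and JUN straddle 0, and at 100 μM over 10 μM ATF3 and IER3 stay below the dashed line.

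Other genes came close to the pattern of EGR1. By the straight-line distance between pairs of log2 ratios at the doses, over the 3 arrays, the nearest of 12045 genes with a RefSeq mRNA accession that every array measured well above background were KATNAL1, SOCS1, TLE2, VMAC and ATP6V1D, at distances of 0.0071 to 0.0201. There were 65 genes within a distance of 0.1.

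Of 46 further immediate early genes looked up by name, 39 could be compared. At 10 μM, 26 were higher and 13 lower than in control cells, with a median of 0.12 (log2). Of all genes, 45.4% were higher at that dose, with a median of -0.04. More than 2-fold higher were 7 genes, which were BTG2, PLK2, PLK3, IER5, LIF, DUSP5 and HBEGF, and more than 2-fold lower was MYC. For LIF this rests on its brightest probe (2.43-fold), since its other probe gave 0.29 (log2). DUSP5 was dim in control cells (27.0, where the lowest signal called was 19.5), and HBEGF was not well above background there. With normexp 5 genes were more than 2-fold higher at 10 μM, and without a filter on dim probes 9. At 100 μM the counts were 23 higher and 16 lower, with a median of 0.03 that changed sign with the scaling (-0.26 to 0.09). Of all genes, 57.6% were higher at 100 μM, with a median of 0.10, so the counts were near this background. BTG2, PLK2, PLK3 and HBEGF were more than 2-fold higher and MYC more than 2-fold lower at 100 μM. The shares of all genes past 2-fold were 3.37% higher and 1.57% lower at 10 μM, and 6.75% and 3.64% at 100 μM.

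BTG2, PLK2 and PLK3 are known targets of p53 as well as early genes. BTG2, an antiproliferative cofactor of mRNA deadenylation, had signals of 212, 2241 and 1214 and was 10.1- and 6.82-fold higher at 10 and 100 μM. PLK2, a polo-like kinase, had signals of 180, 1192 and 608 (6.35- and 4.01-fold), and its relative PLK3 had signals of 2043, 8271 and 4045 (3.88- and 2.35-fold). IER5, a relative of IER2, had signals of 1191, 4792 and 1799, which was 3.86-fold higher at 10 μM and 1.80-fold at 100 μM. HBEGF, a ligand of the EGF receptor, was at least 2.06- and at least 2.56-fold higher. These 4 transcripts with full signals were, like FOS, FOSL1, JUN, JUND, IER3 and ATF3, higher at 10 μM than at 100 μM. MYC, a factor that drives growth, went the other way, with signals of 12506, 6132 and 3044, or 2.13- and 3.46-fold lower than control. PIM1, a survival kinase, and DUSP4, a phosphatase of MAP kinases, were also among the lowest at 100 μM, at ratios of -0.83 and -0.78 (log2). Of the orphan receptors that are classic immediate early genes, NR4A1 and NR4A2 were not well above background on any array, and NR4A3 had signals of 55.3, 55.1 and 56.2.

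The leucine zipper relatives of FOS, JUN and ATF3 lay on both sides of control. Of 20 looked up, 19 were compared. At 10 μM, 6 were higher and 13 lower, and the median was -0.11 (log2). None was past 2-fold, compared with 3.37% of all genes higher and 1.57% lower, so 0 of 19 is near this background. Of all genes, 45.4% were higher at that dose, with a median of -0.04. FOSL2, which encodes FRA2, was 1.53-fold higher at 10 μM and 1.20-fold at 100 μM, with signals of 123, 195 and 124. At 100 μM, 8 were higher and 11 lower, with a median of -0.04 that ran from -0.33 to 0.00 over the scalings. Of all genes, 57.6% were higher at 100 μM, with a median of 0.10. Past 2-fold at 100 μM were 1 gene above control and 2 below it, compared with 6.75% and 3.64% of all genes. MAFK, a small MAF protein, was 2.07-fold higher at 100 μM, and CREM and BATF3 were 1.70- and 1.63-fold higher. ATF1, a relative of CREB, was 1.44-fold lower. JDP2, a repressor of AP-1, had signals of 1022, 547 and 277 and was 1.95- and 3.11-fold lower at the doses. ATF4, the main factor of the amino acid and unfolded protein stress response, was 1.66- and 2.01-fold lower.

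ATF3 is itself a target of ATF4, so the other genes of that response were set beside it. Of 15, 14 were lower than control at 10 μM, with a median of -0.79 (log2), and 15 were lower at 100 μM, with a median of -1.22. The medians over all genes were -0.04 and 0.10. More than 2-fold lower were 2 genes at 10 μM (TRIB3 and SLC7A11) and 11 at 100 μM, compared with 1.57% and 3.64% of all genes. DDIT3, which encodes CHOP, had signals of 937, 494 and 275, and ASNS, the asparagine synthetase gene, had signals of 31797, 17396 and 4502. SLC7A11, the cystine transporter, had the lowest ratio of the list at 100 μM, 6.60-fold below control. DDIT4, an inhibitor of mTOR signalling, was 4.93-fold lower at 100 μM, and the smallest differences at that dose were those of PPP1R15A and CHAC1 (-0.16 and -0.30, log2). At 10 μM the gene of the list that was above control was SESN2, at 0.07. The brightest ATF3 probe was at 0.93, and the mean of its 4 probes at 0.54. A link between the ATF4 response and the ATF3 values was not tested.

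**Figure D4:**
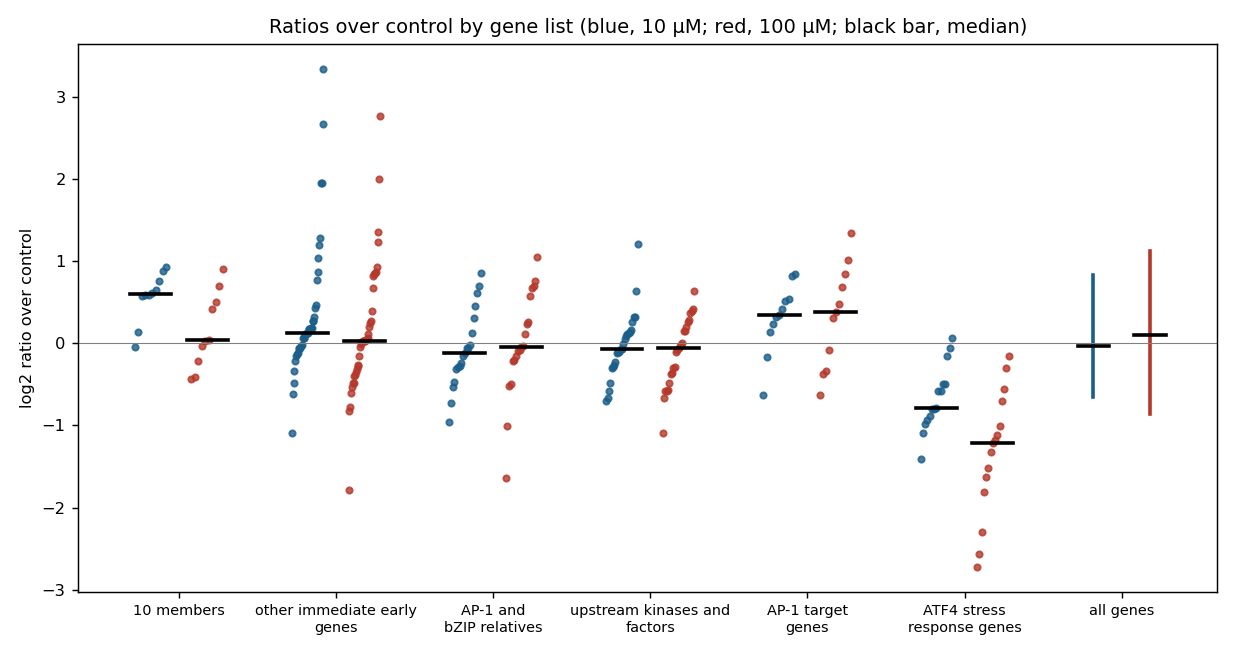
Points are genes of each list, with the log2 ratio to control on the y axis (blue, 10 μM, and red, 100 μM), and black bars are medians. The vertical lines at the right run from the 5th to the 95th percentile of all genes compared, -0.66 to 0.83 at 10 μM and -0.86 to 1.12 at 100 μM. The 10 named genes have a median of 0.60 at 10 μM and 0.04 at 100 μM, and the ATF4 stress response genes of -0.79 and -1.22.

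The promoters were compared over the 250 bases before each start site, for the 8 of the 10 genes with an entry in the RefSeq table. The half-site TGACG was found in 7 of 8 (all but ATF3), compared with 21.2% of 35116 human promoters of the same length. TATAAA was found in 4 of 8 (FOS, FOSB, JUNB and the second start site of ATF3), compared with 3763 of the 35116. It began at -33, -30 and -31 in FOS, FOSB and JUNB, but at -230 in ATF3. ATF3 was counted as 1 gene here, whereas each of its start sites counts by itself among the 35116, so these shares are not fully alike. The variant TGACATCA was found in 2 (JUN and ATF3), compared with 2.38%, the whole CRE in 1 (JUND), compared with 1.65%, and CArG boxes in 1 (EGR1), compared with 1.16%. The EGR site was found in 1 (EGR1), compared with 8.42%. The AP-1 site and the p53 half-site were in 0 of 8, compared with 6.57% and 5.57%. The whole CRE contains the half-site, and a match is only a run of letters in this window.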

How the data were processed

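Cy3-labeled RNA of HepG2 cells was measured on 1-color Agilent arrays, 1 per condition. The authors deposited, per array, the scanner output of Feature Extraction 10.7.3.1 (as given in the submitters' processing notes), with the intensity of 44495 spots after background subtraction, and a table of the whole series that was equal to these intensities for all 44495 spots of each array. Positions of probes are on hg18, as the files give them, and exon annotation on that build was not used here.

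From the deposited intensity, log2 values were averaged over a probe's spots without outlier spots, and the 75th percentile over probes (each counted once) was subtracted per array. A gene was its brightest probe. A ratio needed a signal well above background on the brighter array, and a dimmer signal under the lowest one well above background took that value (a bound). The spread between spots came from the 50 nearest of 999 probes printed 10 times. Counts past 2-fold are descriptions, since 1 array per condition allows no test, and the number of arrays limits the precision. The steps were tested on simulated data.

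The 10 genes, the gene lists and the rules were chosen with earlier results of these data known. Named were all 10 genes with every probe, from each list the 3 highest and 3 lowest at 100 μM among genes measured above background in both conditions, and the 5 genes with a RefSeq mRNA accession nearest to EGR1, which had the largest ratio at 100 μM of those of the 10 genes that every array measured well above background. IER5, HBEGF, LIF, DUSP5, NR4A1, NR4A2, NR4A3, FOSL2, DDIT3, TRIB3 and RPS6KA5, and the CRE variant TGACATCA, were chosen after their values or letters were seen. Alternatives were 6 other scalings, normexp background correction with an offset of 50 (limma 3.58.1), other filters on dim probes, outlier spots kept, the mean of all probes or each probe by itself, the series table, and thresholds of 1.5- and 3-fold. Python 3.11.15, pandas 2.3.3, numpy 2.4.6 and R 4.3.3 were used.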

Additional observations from a re-analysis of the deposited data

How the results depend on the processing

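No paired analysis was possible because there was only 1 array for each dose. Of 357 alternative values of the 10 genes' log2 ratios, 317 moved by at most 2 spot SDs of the ratio and 40 by more, of which 16 were at 100 μM over control, 23 at 100 μM over 10 μM and 1 at 10 μM over control. No gene that was past 2-fold changed sign.

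The median ratio of the 10 genes at 10 μM (0.60) was 0.46 with normexp. At 100 μM (0.04) it was -0.21 without scaling, -0.25 with median scaling, -0.088 with quantile normalization and -0.13 with spike-in scaling. At 100 over 10 μM (-0.36) it was -0.67 without scaling, -0.63 with median scaling, -0.58 with spike-in scaling, -0.22 with normexp, -0.55 over probes that every array measured above background and -0.56 with each probe by itself. With 1.5-fold in place of 2-fold, 5 of these genes were higher at 10 μM and 2 at 100 μM. The 2 genes past 2-fold between the doses became 1 with the mean of all probes (IER3), 0 at 3-fold, and 3, with FOSL1, without scaling and with median or spike-in scaling.

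Of the further immediate early genes, the 7 more than 2-fold higher at 10 μM became 4 at 3-fold. The 1 lower became 2 at 1.5-fold or without a filter on dim probes and 0 at 3-fold, and the median of 0.12 became 0.18 without scaling. At 100 μM, the 4 higher became 7 without a filter on dim probes, 10 at 1.5-fold and 2 at 3-fold, and the 1 lower became 3 without scaling or with median scaling and 4 at 1.5-fold. Their median of 0.03 became -0.22 without scaling, -0.26 with median scaling, -0.14 with spike-in scaling and 0.09 with the percentile over every spot.

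Over all genes, 1145 were more than 2-fold higher and 617 lower at 100 μM, compared with 634 and 1071 without scaling, 586 and 1181 with median scaling, 780 and 785 with quantile normalization, 750 and 914 with spike-in scaling, 382 and 420 with normexp, and 3242 and 1049 without a filter on dim probes. The cause of these shifts was not tested. For dim probes such as FOSB, signal over background limits what can be said.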

Other observations

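Genes known as AP-1 targets were looked up by name. Of 18, 11 could be compared, 9 of which were higher and 2 lower than in control cells at 10 μM. Their median was 0.35 (log2). None was past 2-fold, compared with 3.37% of all genes higher and 1.57% lower, so 0 of 11 is near this background. Of all genes, 45.4% were higher at that dose, with a median of -0.04. At 100 μM, 7 were higher and 4 lower, with a median of 0.38 that ran from 0.09 to 0.44 over 7 scalings. Of all genes, 57.6% were higher at 100 μM, with a median of 0.10, or -0.19 with median scaling. The 2 genes HMOX1 and TIMP1 were more than 2-fold higher, as were 6.75% of all genes. These 2 became 1 without scaling and with median scaling, spike-in scaling or normexp. TIMP1, an inhibitor of matrix proteases, had signals of 1878, 3511 and 4008 at 0, 10 and 100 μM (1.79- and 2.54-fold). HMOX1, the heme oxygenase gene, had signals of 6707, 8899 and 11438 (1.27- and 2.03-fold). MMP9, a matrix protease, was 1.79-fold higher at 100 μM. VEGFA, the vascular growth factor, was 1.55-fold lower at both doses. CD44 and PLAU, a cell surface receptor and a urokinase, were above control at 10 μM (0.42 and 0.32, log2) and below it at 100 μM (-0.37 and -0.34).

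Of 26 kinases and factors that act upstream of immediate early genes, 25 were compared, with medians of -0.06 at 10 μM and -0.06 at 100 μM. The median at 100 μM was -0.35 with median scaling. At 10 μM, 11 were higher and 14 lower, and at 100 μM, 10 and 15. The medians over all genes were -0.04 and 0.10, with 45.4% and 57.6% higher. Past 2-fold were 1 gene higher at 10 μM and 1 lower at 100 μM, compared with 3.37% and 3.64% of all genes. RPS6KA1, a kinase that phosphorylates SRF and CREB family factors, was 2.32-fold higher at 10 μM and 1.56-fold at 100 μM, and its other probe gave 1.13 and 0.63 (log2). MAPK3 (ERK1) and ELK4, an SRF cofactor, were 0.42 and 0.39 above control (log2) at 100 μM, and ELK3, another, was at -0.58. RPS6KA5 was at least 2.13-fold below control at 100 μM, where its signal was not well above background, and it was not past 2-fold with normexp or the mean of all probes, and not compared among probes above background on every array. ATM, the kinase that senses double-strand breaks, gave -0.67 (log2) at either dose with its brightest probe, whereas its other probe gave -0.22 and 0.44.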
